A study of Mus musculus with 6 samples.

Results

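Ankyrins, spectrins and plakins are large proteins that tie the plasma membrane and its channels to the cytoskeleton. Spectrin tetramers of alpha and beta subunits and short actin filaments form a periodic lattice under the axon membrane, and ankyrins fasten channels and adhesion molecules to it. At the axon initial segment and the node of Ranvier, ankyrin-G and beta-IV spectrin hold sodium and potassium channels in place, while plakins join intermediate filaments, actin and microtubules. The 9 genes described here are the ankyrin genes Ank1, Ank2 and Ank3, the spectrin genes Sptan1, Sptb, Sptbn1 and Sptbn4, and the plakin genes Plec and Macf1. They are 9 of the 20694 genes tested, and all 9 passed the filter on low counts.

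The list was chosen by measured values: it was drawn up after earlier results had been seen, because the counts of Ank3 and Plec differed between treated tau and tau. That contrast is therefore given below as a description for every member, with no test. The other comparisons share libraries with it, so Ank3 and Plec are given without a test there as well, and the other 7 members with one.

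RNA was sequenced from tissue labelled PFC of mice aged 6 months, with 2 libraries in each of 3 groups. Treated tau libraries came from animals of the PS19(P301S) line, transgenic for mutant human tau, that received WDR5-0103, a small molecule that binds the histone methyltransferase subunit WDR5. Tau libraries came from the same line given vehicle, and control libraries from C57BL/6 x C3H mice given vehicle. In the PS19 line the mouse prion protein promoter drives the transgene, and the dose, route and length of treatment are not known here. The labels call the libraries biological duplicates, and n = 2 libraries holds for every group mean below. P-values of the main fit set a group difference against the spread between libraries within groups. That spread was estimated over all 6 libraries together and moderated across genes.

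Total counts ranged from 17690811 to 34774643 per library. Prnp, whose promoter drives the transgene, had 1472 to 1876 CPM (counts scaled by library size) in the PS19 libraries. The library labelled control 1 had 1654 CPM and so went against its label, while control 2 had 876 CPM. Xist, a marker of female cells, was at 2.43 and 1.75 CPM in treated tau, 186 and 235 CPM in tau, and 0.197 and 318 CPM in control, and between treated tau and tau the animals' sex and the treatment cannot be told apart. Summed oligodendrocyte markers were highest in tau 2 (5673 CPM, against 1494 to 3028 in the other libraries), and so were striatal markers (229.6 CPM against 85.4 to 128). Summed olfactory bulb markers lay between 2.87 and 5.41 CPM except for 90.4 CPM in the library labelled control 1, with Tbx21 and Eomes at 0 in some libraries. The 8 markers of excitatory cortical neurons were detected in every library, with sums of 2294 to 2743 CPM.

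The scaffold transcripts were abundant. Together the 9 genes took 0.757% and 0.794% of all counts in treated tau, 0.75% and 0.752% in tau, and 0.805% and 0.813% in control. Sptan1, the alpha-II subunit that pairs with every neuronal beta spectrin, averaged 2246 CPM over the 6 libraries and ranked 9 among all genes tested, and Sptbn1, the beta-II subunit of the axonal lattice, ranked 19. Ank2 (ankyrin-B, found along axons) ranked 29 and Macf1 (a spectraplakin that crosslinks microtubules and actin) 60. Ank1 (ankyrin-R, first known from red cells) was the least abundant, at 44.0 CPM.

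Levels can be set side by side only per length, here as CPM per kb of the longest annotated transcript. On that scale Sptan1 had 280.1, Sptbn1 188, Ank2 107, Ank3 58.2, Macf1 47.1, Plec 19.0, Sptb 16.9, Sptbn4 15.0 and Ank1 5.25 CPM per kb. The ranges over libraries overlapped between Ank3 (47.7 to 64.3) and Macf1 (44.8 to 50.04). They also overlapped between Plec (14.7 to 22.4) and Sptb (14.6 to 18.4), and between Sptb and Sptbn4 (12.6 to 17.5). The other neighbours in this order did not overlap. With all annotated exons as the length, Macf1 (35.2) stood above Ank3 (16.6), over 34838 annotated exon bases for Ank3 and 31402 for Macf1.

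All 9 transcripts are long, from 8.02 kb (Sptan1) to 23.5 kb (Macf1), but they differ in base composition. The GC content of the longest transcript was 63.7% for Sptbn4, 61.3% for Plec and 57.004% for Sptb and 56.98% for Ank1. It was 52.3% for Sptan1, 49.2% for Ank2, 48.3% for Ank3, 47.6% for Sptbn1 and 46.9% for Macf1. In coding sequence the share of G or C at the third codon position was 76.2% in Sptbn4 and 75.5% in Plec, against 60.2% in Sptbn1 and 49.7% in Macf1. Since composition recurs in the comparisons, the most alike coding stretch of 150 bases is shown for the plakin pair as an example, read 5′ to 3′ from GENCODE M21 transcripts (mm10), with capitals at the positions where the pair differs. It starts at coding base 733 of Plec (gene on chromosome 15) and at coding base 397 of Macf1 (gene on chromosome 4), inside the actin-binding domain.
Plec: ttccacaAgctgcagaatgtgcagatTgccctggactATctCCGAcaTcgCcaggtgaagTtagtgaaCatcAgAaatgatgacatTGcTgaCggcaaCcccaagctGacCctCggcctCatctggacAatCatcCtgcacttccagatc
Macf1: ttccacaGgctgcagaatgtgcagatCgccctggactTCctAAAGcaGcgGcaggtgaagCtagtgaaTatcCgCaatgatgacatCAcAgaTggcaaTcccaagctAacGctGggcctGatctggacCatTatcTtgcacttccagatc
These stretches share 124 of 150 positions, and the 26 differences are even in composition, with both stretches at 51.3% GC. The GC difference between Plec and Macf1 therefore lies outside this most conserved stretch. Nothing follows from this pair for the spectrins or ankyrins.

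Treated tau against tau asks what the WDR5 inhibitor changes in transgenic tissue, and is the contrast that chose the list. Plec, the gene of plectin, which crosslinks intermediate filaments with actin and microtubules (chromosome 15, 76170974 to 76232574, mm10), had 340.1 and 319 CPM in treated tau, against 227 and 234 CPM in tau. The groups did not overlap, and tau was also below both control libraries (296 and 347 CPM). The log2 fold change was 0.52 ± 0.09 (SE), or 43.1% more. Ank3, the gene of ankyrin-G (chromosome 10, 69398773 to 70027438), had 610.2 and 641 CPM in treated tau, 475 and 558 CPM in tau, and 572 and 623 CPM in control. Treated tau again lay above tau, but tau 1 stood well below tau 2, and tau 2 lay near the library labelled control 1. The log2 fold change of Ank3 was 0.28 ± 0.09 over all libraries, 0.16 without tau 1 and 0.40 without tau 2.

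At an adjusted p under 0.05 in edgeR, 3.76% of all genes were called, and 1 of the 9 members, Plec, which was picked for this difference, so that nothing can be read from the count. Leaving out any of the 4 libraries compared, or fitting protein-coding genes alone, gave log2 fold changes of 0.48 to 0.57 for Plec and put it outside the called genes. In 4 members treated tau lay above tau with no overlap (21.2% of all genes did), and in 0 members below (20.1%). The 9 fold changes had a median of 0.20, against -0.0060 over all genes tested, and 7 of 9 were positive (48.7% of all genes were). That median was 0.066 without tau 1 and 0.32 without tau 2. These counts and medians include Ank3 and Plec, which were picked for this difference. Nothing is therefore read from setting them against all genes.

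Sptbn4, the beta-IV spectrin of initial segments and nodes, had 138 and 137 CPM in treated tau, 110.2 and 119.7 CPM in tau, and 131 and 153 CPM in control. Sptb, the beta-I spectrin of red cells and some neurons, had 191 and 187 CPM in treated tau, 152 and 169 CPM in tau, and 168 and 189 CPM in control. Both were closely matched within treated tau and lower in both tau libraries, with log2 fold changes of 0.26 ± 0.09 and 0.24 ± 0.09 for treated tau over tau. Ank1 had 47.7 and 44.1 CPM in treated tau, 36.02 and 44.5 CPM in tau, and 43.3 and 48.2 CPM in control. Here tau 2 lay inside the treated range, and the log2 fold change (0.20 ± 0.12) was 0.048 without tau 1.

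The most abundant members had the smallest values for treated tau over tau. Sptan1 had 2139.8 and 2338 CPM in treated tau, against 2368 and 2216 CPM in tau, a log2 fold change of -0.034 ± 0.07. For Sptbn1 the values were 1693 and 1817 CPM in treated tau, against 1695 and 1677 CPM in tau (0.057 ± 0.06). Ank2 had 1487 and 1640.3 CPM in treated tau against 1411 and 1496 CPM in tau (0.11 ± 0.07), and Macf1 1051 and 1103 CPM against 1059.6 and 1112 CPM (-0.012 ± 0.07). In all 4 genes the libraries of the groups overlapped.

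**Figure D1:**
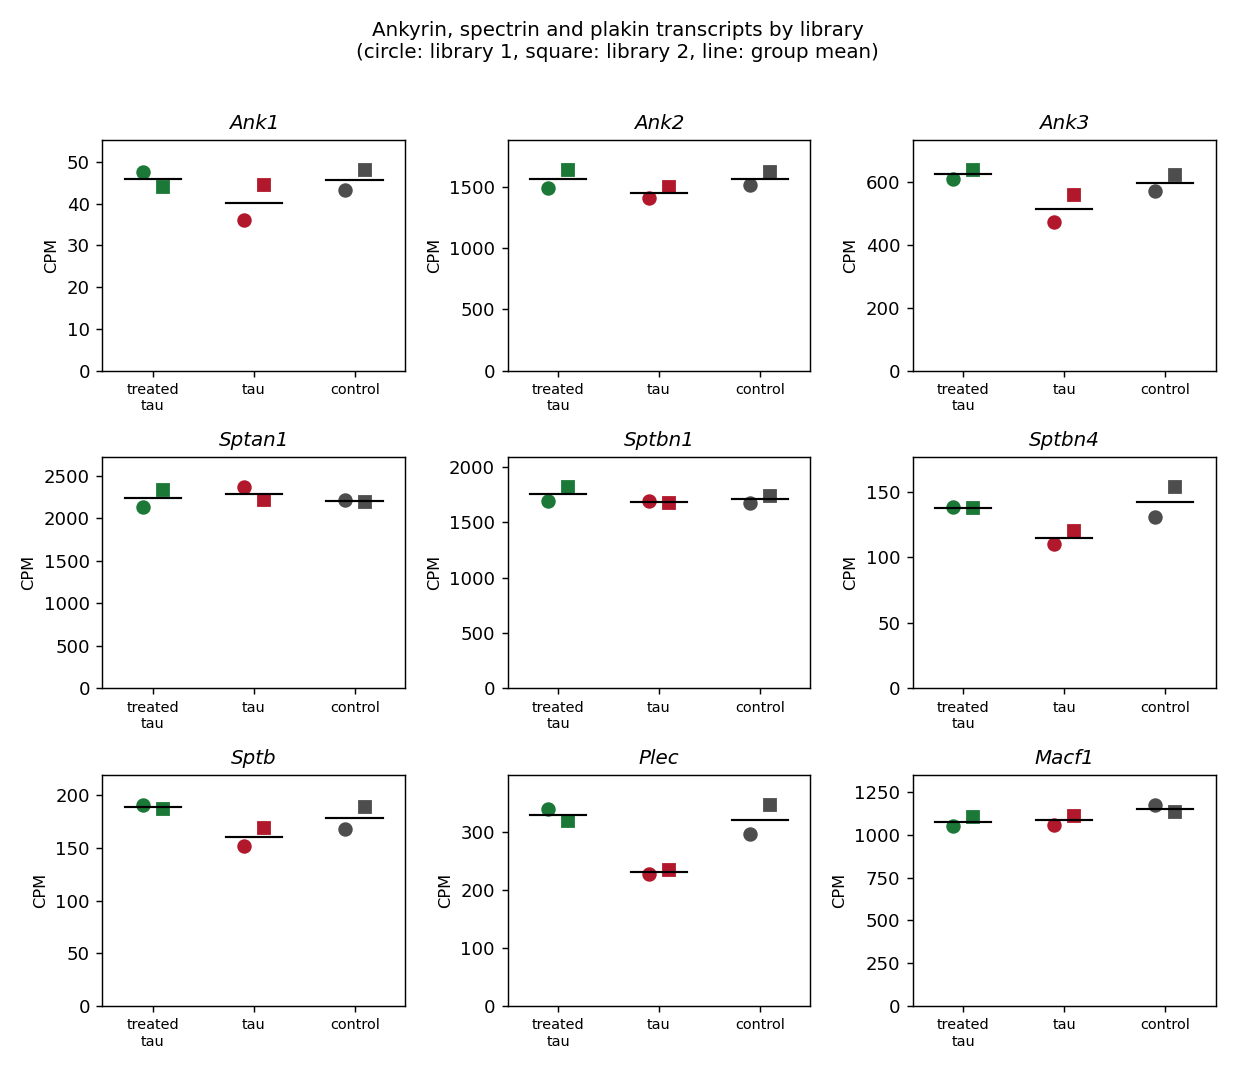
CPM of each of the 9 genes in each library (vertical axes from 0), with treated tau left of tau and control; circles are library 1, squares library 2 and lines group means. Plec, Sptbn4, Sptb and Ank3 lie lower in both tau libraries than in both treated tau libraries, while Sptan1, Sptbn1, Ank2 and Macf1 overlap between these groups.

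Tau against control sets PS19 libraries beside those labelled non-transgenic, both on vehicle. The library labelled control 1 had Prnp at the PS19 level (1654 CPM). It also had little Xist (0.197 CPM, against 186 and 235 CPM in tau), so the contrast does not isolate the transgene. By edgeR's quasi-likelihood test 0 of the 7 members tested, and 0 of all genes, were called (0% background), with 2059 genes (9.95%) at an unadjusted p under 0.05. DESeq2 called 55 genes, with 0 of the 7 members tested among them. Plec was among the 55, but it chose the list, so nothing is read from that call. Of the 7 members tested, Sptbn4 had the smallest p, with 115 ± 6.72 CPM in tau and 142 ± 15.8 CPM in control (SD, n = 2 each), a log2 fold change of -0.31 ± 0.09 (unadjusted p = 0.00942 and adjusted p = 0.441 in edgeR). The fold change was -0.41 without the library labelled control 1 and -0.19 without control 2, since control 2 had the highest Sptbn4 of all libraries. For Ank1 (-0.19), Sptb (-0.15), Ank2 (-0.11), Macf1 (-0.088) and Sptbn1 (-0.019) the adjusted p lay between 0.57 and 0.944. Sptan1 had the only positive value among the members, 0.054 ± 0.07 (adjusted p = 0.798).

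For the genes that chose the list, described without a test, the log2 fold change of tau over control was -0.48 ± 0.09 for Plec and -0.21 ± 0.09 for Ank3. Ank3 was -0.092 without tau 1 and -0.33 without tau 2. Plec was -0.59 without the library labelled control 1 and -0.36 without control 2. In 5 members tau lay below control with no overlap (21.3% of all genes did), and in 1, Sptan1, above (20.3%). Of the 9 fold changes 1 was positive (49.4% of all genes were), and their median was -0.15, against -0.0030 over all genes tested. The median was -0.061 without tau 1 and -0.23 without the library labelled control 1. These counts and medians include Ank3 and Plec, and the tau libraries are shared with the contrast that chose the list. Nothing is therefore read from setting them against all genes.

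Treated tau against control showed small values in every member, from -0.0995 (Macf1) to 0.084 (Sptb). Among the 7 members tested, edgeR called 0 (4.22% of all genes) and gave adjusted p from 0.508 (Macf1) to 0.995 (Ank2). No tested member had an unadjusted p under 0.05 either (16.3% of all genes did). Sptbn4 averaged 138 ± 0.700 CPM in treated tau and 142 ± 15.8 CPM in control, a log2 fold change of -0.045 ± 0.09. Macf1 alone did not overlap, with 1051 and 1103 CPM in treated tau against 1176 and 1132 CPM in control (23.3% of all genes were lower with no overlap), and 0 members were higher with no overlap (23.0%). Of the 9 values 6 were positive (48.8% of all genes were), but only 2 with upper-quartile scaling, so these signs depend on the scaling. The log2 fold changes of Plec and Ank3 here were 0.038 ± 0.09 and 0.066 ± 0.09. The 3 comparisons share libraries pairwise, so their values are not independent of each other.

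**Figure D2:**
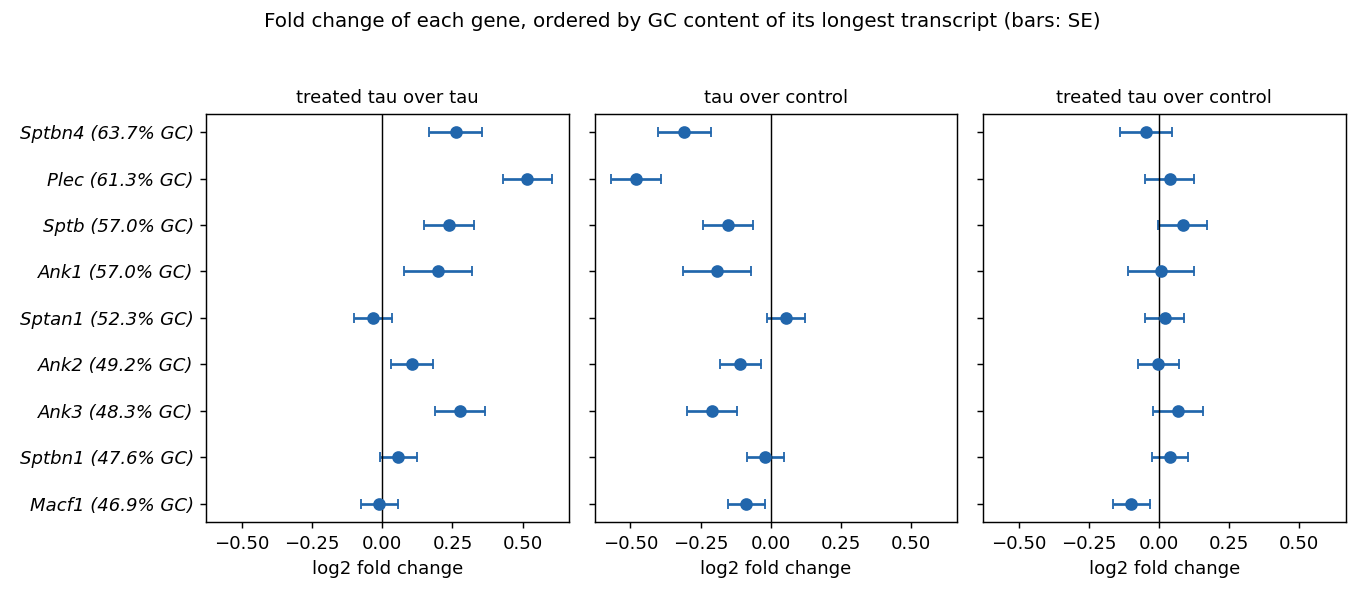
Log2 fold change (horizontal axis) with its SE for each gene in the 3 comparisons, with genes ordered from the highest GC content of the longest transcript at the top to the lowest at the bottom. Plec has the widest values, 0.52 for treated tau over tau and -0.48 for tau over control, and every value for treated tau over control lies between -0.10 and 0.084.

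Ratios of counts within a library do not depend on scaling between libraries. The genes of a ratio can still differ in GC content, with which fold changes of long genes varied (below). Plec had 61.3% GC against 46.9% for Macf1, and Sptbn4 63.7% and Sptbn1 47.6% against 52.3% for Sptan1. The part of GC content in the ratios was not tested. Per 100 counts of Macf1, Plec had 32.4 and 29.0 in treated tau, 21.4 and 21.0 in tau, and 25.2 and 30.6 in control. Tau stood below the other groups in this ratio without overlap. Sptbn1 had 79.1 and 77.7 counts per 100 of its partner Sptan1 in treated tau, 71.6 and 75.7 in tau, and 75.8 and 79.0 in control. Tau was lowest here too, though tau 2 lay close to the library labelled control 1. Sptbn4 per 100 Sptan1 counts was 6.46 and 5.87 in treated tau, 4.65 and 5.40 in tau, and 5.91 and 6.97 in control, with tau again lowest. Ank3 per 100 Ank2 counts was 41.0 and 39.1 in treated tau, 33.7 and 37.3 in tau, and 37.8 and 38.4 in control. Sptb per 100 Sptan1 counts was 8.92 and 8.01 in treated tau, 6.42 and 7.63 in tau, and 7.58 and 8.59 in control. Ank1 per 100 Ank2 counts was 3.21 and 2.69 in treated tau, 2.55 and 2.97 in tau, and 2.86 and 2.97 in control. In the ratios of Sptb and Ank1 only tau 1 was lowest, and tau 2 lay among the other groups. Plec and Ank3 chose the list, and no share over all gene pairs is given here. Nothing is therefore read from how many ratios were lowest in tau.

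**Figure D3:**
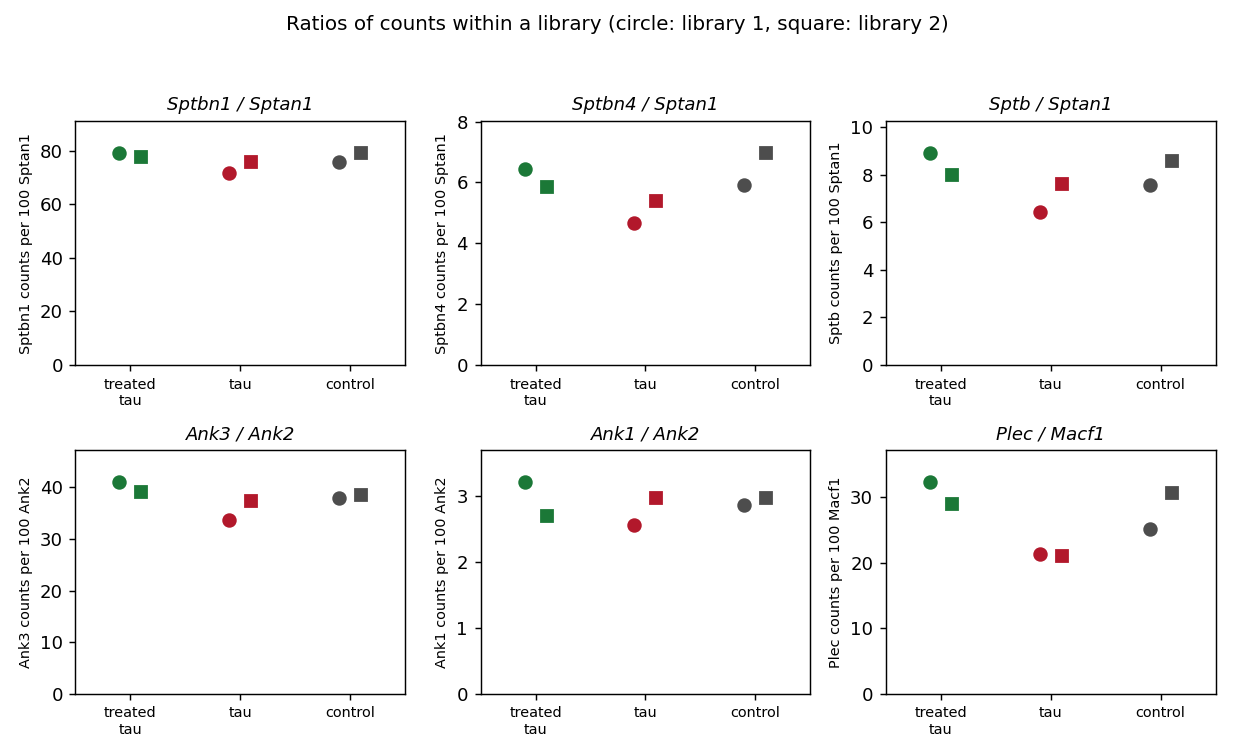
Counts of one gene per 100 counts of a partner in the same library (vertical axes from 0), with treated tau left of tau and control; circles are library 1 and squares library 2. Both tau libraries have the lowest ratios of Plec to Macf1 (21.4 and 21.0), Sptbn4 to Sptan1 (4.65 and 5.40), Sptbn1 to Sptan1 (71.6 and 75.7) and Ank3 to Ank2 (33.7 and 37.3). For Sptb to Sptan1 and Ank1 to Ank2 only tau 1 is lowest (6.42 and 2.55), and tau 2 (7.63 and 2.97) lies among the other groups. Plec and Ank3 chose the list, and no share over all gene pairs is given.

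Among all coding genes tested, fold changes followed transcript length. For treated tau over tau the median log2 fold change was -0.10 for transcripts under 1 kb and 0.069 for those of 10 kb or longer (397 genes), and it was higher in each successive class of the 7. For tau over control it was 0.12 under 1 kb and -0.099 at 10 kb or longer. By library the longest class deviated from its mean over libraries by -0.011 and 0.055 (log2) in treated tau, -0.085 and -0.027 in tau, and -0.014 and 0.081 in control. Against their own length classes, Plec and Ank3, which were picked for this contrast, stood at percentiles 98.0 and 90.6 for treated tau over tau. Sptbn4 (88.3), Sptb (83.1) and Ank1 (81.8) stood high as well. Sptbn1 stood at 59.7, Ank2 at 57.9, Macf1 at 31.5 and Sptan1 at 31.3.

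Among long transcripts, GC content separated the fold changes further. Of coding genes of 8 kb or longer, the 89 with 55% GC or more had a median log2 fold change of -0.34 for tau over control (quartiles -0.48 and -0.21), and 7.87% of them were positive. The 89 long genes under 40% GC had a median of 0.067. For treated tau over tau the same classes had medians of 0.22 and -0.0025. In genes under 4 kb with 55% GC or more the medians were only 0.020 for treated tau over tau and -0.023 for tau over control. The long GC-rich class holds Plec, Sptbn4, Sptb and Ank1, the class of 45 to 50% GC holds Ank2, Ank3, Sptbn1 and Macf1, and Sptan1 lies between them.

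Set against long genes of its own GC class, which include the members, Sptbn4 was ordinary, at percentile 57.3 for treated tau over tau and 53.9 for tau over control. Sptb (52.8) and Ank1 (47.2) lay near the middle for treated tau over tau, but at 82.0 and 76.4 for tau over control, 0.18 and 0.14 above the class median. Plec stood at percentile 88.8 for treated tau over tau, 0.30 above its class median in log2, and at 22.5 for tau over control. Ank3 stood at 94.96 and 14.8 in its less GC-rich class. Sptan1 went against its class in tau over control, at percentile 89.9 and 0.23 above the class median. Across the 9 members the fold change correlated with GC content at r = 0.67 for treated tau over tau and -0.70 for tau over control. With log2 length the values were 0.0080 and -0.19 (n = 9 genes measured in the same libraries, a description only).

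By library, the long GC-rich class deviated from its mean by 0.026 and 0.037 (log2) in treated tau, -0.22 and -0.14 in tau, and 0.042 and 0.20 in control. Plec deviated by 0.23 and 0.14 in treated tau, -0.35 and -0.31 in tau, and 0.031 and 0.26 in control. With smooth offsets for length and GC content in each library, the log2 fold change of treated tau over tau was 0.47 for Plec, 0.23 for Ank3, 0.19 for Sptbn4, 0.17 for Sptb and 0.13 for Ank1. For tau over control the offsets gave -0.27 for Plec, -0.14 for Ank3, -0.13 for Ank1, -0.10 for Sptbn4 and -0.063 for Sptb. Under the offsets Ank2 (0.0066), Sptbn1 (0.042) and Macf1 (0.062) turned positive in tau over control, which left 5 of 9 negative, against 8 without offsets. For treated tau over control they gave 0.21 for Plec, against 0.038 without offsets. What sets this length and GC pattern of the libraries was not tested.

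**Figure D4:**
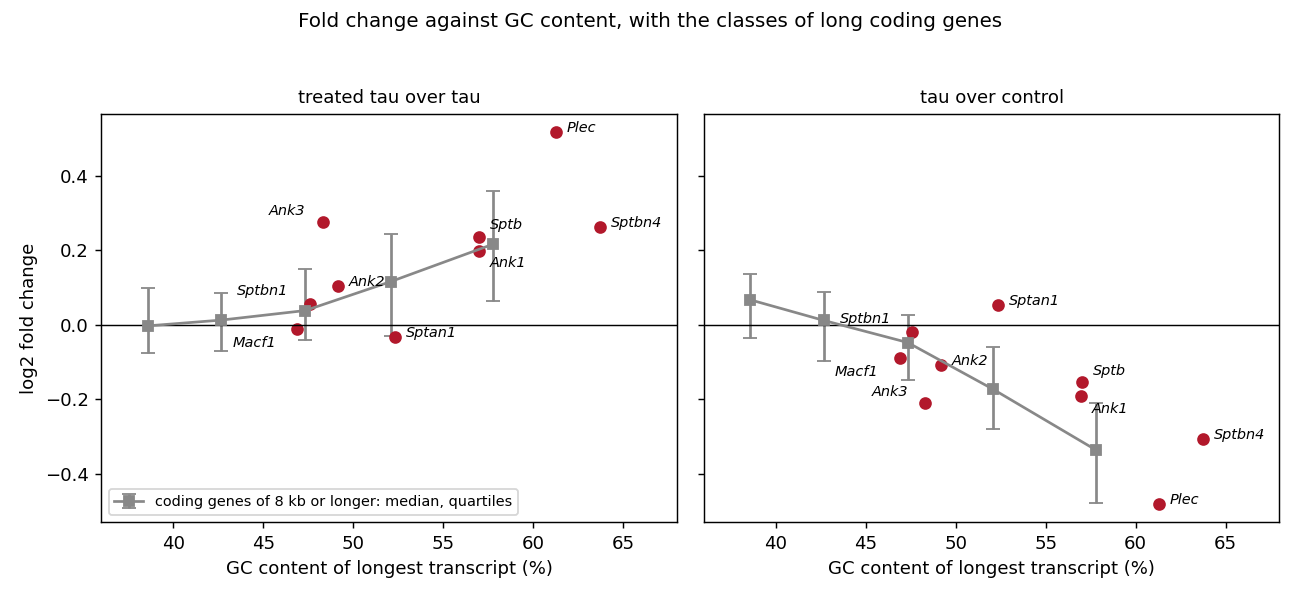
Log2 fold change (vertical axis) against GC content of the longest transcript in percent (horizontal axis), for treated tau over tau and tau over control. Grey squares and bars are medians and quartiles of coding genes of 8 kb or longer in 5 GC classes, placed at the class's median GC content, and red points are the 9 genes. Class medians run to 0.22 and -0.34 at 55% GC or more, with Plec at 0.52 and -0.48.

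The libraries also set the members apart in other ways. Tau 1 had the lowest value of 6 of the 9 members. Of the 36 pairs of members 11 correlated above 0.8 over the 6 libraries and 8 below 0. The highest were Ank3 with Sptb (r = 0.95) and Sptbn4 with Plec (0.95). Each of these pairs holds Ank3 or Plec, which chose the list. No share over all gene pairs is given here, so nothing is read from these counts. Sptan1 ran opposite to Ank1 (-0.79), Sptb (-0.54), Sptbn4 (-0.52), Plec (-0.495) and Ank3 (-0.46), but not to Sptbn1 (0.45). Since Ank1 and Sptb are also red cell genes, blood markers were set beside them. The 5 blood markers summed to 51.6 and 52.3 CPM in treated tau, 70.4 and 39.0 CPM in tau, and 60.7 and 63.6 CPM in control, with tau 1 highest. Among them Hba-a2, an alpha globin, had 4.09 and 4.10 CPM in treated tau, 2.07 and 2.81 CPM in tau, and 3.43 and 5.02 CPM in control. Hbb-bt, a beta globin, went the other way, with 3.36 and 3.62 CPM in treated tau against 8.88 and 4.70 CPM in tau. For treated tau over tau 2 of the 5 blood markers had positive values and 3 negative, with a median log2 fold change of -0.30. The part of blood in the result was not tested. In control, the library with little Xist, whose Prnp went against its label, had less Plec (296 CPM) than control 2 (347 CPM). The part of sex in the result was not tested. Summed excitatory neuron markers were 2729.9 and 2644 CPM in treated tau, 2527 and 2370.3 in tau, and 2294 and 2743 in control. All 8 had positive values for treated tau over tau, with 0 called. All 8 striatal markers had negative values and 3 were called, and all 8 oligodendrocyte markers had negative values with 0 called. All 6 astrocyte markers had negative values too, with 0 called. Of 6 endothelial and mural markers 3 were positive and 3 negative, and Cldn5 was called higher (0.88, edgeR adjusted p = 0.0285). Over all genes, 48.7% were positive and 3.76% were called. The part of these cell types in the result was not tested. In bulk tissue fewer cells of a type and less RNA per cell cannot be told apart.

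Of 9635 other coding genes with a mean of at least 10 CPM, those most like Ank3 over the 6 libraries were Dpp9, Timp4, Ap2a1 and Sfxn3 (Pearson r of log2 CPM from 0.989 to 0.993), and 206 genes exceeded 0.9. Those most like Plec were Traf2, Sidt2, Arid1a, Mark4 and Tmem243 (0.984 to 0.994), with 240 genes above 0.9. These are the top of many correlations over few libraries that differ in the composition pattern above. Of these 9 genes, Timp4 (47.7%) and Tmem243 (37.7%) had under 50% GC and the others 51.1% to 60.6%.

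The wider set of partners held 1 called gene in 6 lists, which were also drawn up with earlier results known. That call was in treated tau over control, where 4.22% of all genes were called. Among other spectrin-repeat and plakin genes (14 of 16 tested), Actn2, an alpha-actinin of the postsynaptic density, fell to 8.97 and 10.3 CPM in treated tau, against 15.6 and 13.7 CPM in control (log2 fold change -0.61 ± 0.14, edgeR adjusted p = 0.0462). The call of Actn2 held in 4 of 15 alternatives and ended when any library was left out, with log2 fold changes of -0.50 to -0.70 and adjusted p of 0.0308 to 0.291 over the 15. Utrn, a dystrophin relative, had the smallest p of this list in tau over control (-0.18, adjusted p = 0.492). The list's median log2 fold change was 0.023 for treated tau over tau, -0.13 for tau over control and 0.037 for treated tau over control. Eppk1, an epidermal plakin, did not pass the filter, nor did Slc4a1, the red cell anion exchanger that Ank1 anchors.

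Initial segment and node genes (17 tested) had 11 positive values for treated tau over tau and a median of 0.15, with 0 called. Of all genes 48.7% were positive and 3.76% called in this comparison. Scn8a, the sodium channel of mature initial segments and nodes, had 562 and 556 CPM in treated tau, 415 and 461 CPM in tau, and 455 and 533 CPM in control (log2 fold change 0.35 ± 0.09 for treated tau over tau, edgeR adjusted p = 0.0734). Scn8a was called in 5 of 15 alternatives, DESeq2 among them. Cntnap1, the paranodal adhesion protein Caspr, had 0.31 (adjusted p = 0.156). For tau over control the list's median was -0.017, and the smallest p belonged to the sodium channel gene Scn1a (0.17, adjusted p = 0.457). For treated tau over control 15 of 17 were positive (median 0.12), against 48.8% of all genes. This was not particular to the list, since 15 of 16 actin and adaptor partners of the lattice were positive as well. Scn1a again had the smallest p (0.24, adjusted p = 0.0887, called in 2 of 15 alternatives).

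The other lists likewise held 0 called genes in each comparison by edgeR. Of all genes, 3.76% were called for treated tau over tau and 4.22% for treated tau over control. The 8 tested membrane partners of ankyrins had a median log2 fold change of 0.16 for treated tau over tau, -0.080 for tau over control and 0.042 for treated tau over control. Among 16 actin and adaptor partners of the lattice, Actb, cytoplasmic actin, had -0.24 for treated tau over tau (adjusted p = 0.079, called in 4 of 15 alternatives) and 0.25 for tau over control (adjusted p = 0.441). Epb41l1, the neuronal 4.1N adaptor, had 0.22 (adjusted p = 0.201) and -0.19 (adjusted p = 0.452) in the same comparisons. Among 16 partners of plakins, Gfap, the astrocyte filament, had -0.56 for treated tau over tau (adjusted p = 0.264) and 0.69 for tau over control (adjusted p = 0.441), with 112 CPM in tau 2 against 49.5 to 66.1 elsewhere. Without tau 1 the Gfap value of -0.90 for treated tau over tau was called (adjusted p = 0.0135), and without tau 2 it was -0.14 (adjusted p = 0.85). Nefm, a neurofilament subunit, had 0.58 for treated tau over control (adjusted p = 0.0684) and was called in 6 of 15 alternatives. Among 5 calpain and caspase genes that cut spectrin or act on its cutting, Capns1 had the smallest p in tau over control (0.19, adjusted p = 0.499).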

How the data were processed

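Per the labels' protocols, stranded libraries were prepared from ribosomal-depleted total RNA, Cutadapt trimmed the reads, and TopHat2 aligned them to RefSeq mRNAs. Per the submitters' processing notes, featureCounts, SAMtools, edgeR and mm10 were used; their versions and the strand setting are not known here. The authors deposited whole-number read counts per gene symbol, 1 table per library, and 53640 symbols shared by all 6 tables were used.

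Low counts were removed by filterByExpr at a minimum count of 10, and TMM-scaled counts were modelled over all 6 libraries with edgeR 4.0.16 (glmQLFit and glmQLFTest, legacy option off, two-sided, 3 residual degrees of freedom, no covariate) in R 4.3.3, with Benjamini-Hochberg adjustment over 20694 genes. SE is the log2 fold change over the square root of its F. Log2 CPM used a prior count of 2. Lengths, GC content and positions came from GENCODE M21 (mm10), matched for 20557 tested genes. Overlapping genes such as Plekhg3 (Sptb), Parp10 (Plec) and Gm15816 (Ank1, 4.76% of its 50-mers) had at most 12.4 CPM. The script was tested on simulated data.

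Members and lists were chosen with earlier results of these data known. Named genes are all members, called list members, otherwise the 1 or 2 of smallest p, and the 5 genes most like Ank3 and Plec; some genes that this rule names are not reported here. Alternatives included DESeq2 1.42.0, other scalings and filters, protein-coding genes alone, length and GC offsets (mgcv 1.9.3), a replicate block and each library left out.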

Additional observations from a re-analysis of the deposited data

How the results depend on the processing

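With 15 alternatives per result, 400 of 405 member fold changes kept their side of the threshold or, for treated tau over tau, moved by less than 1 SE, and 0 reversed as calls. In both comparisons with control the members lay far from the threshold in the main fit, so keeping their side says little. Their signs for treated tau over control held in 7 (Ank2) to 15 (Ank3 and Sptb) of the 15 alternatives. The alternatives in which Plec lost its call for treated tau over tau are among the 400. The exceptions were Plec in tau against control with DESeq2, and Ank1 and Ank3 for treated tau over tau without tau 1 or tau 2. Genes called in tau against control numbered 55 with DESeq2, and from 0 to 98 with 1 library left out (98 without control 2 and 9 without tau 2), against 0 in edgeR over all libraries. In treated tau against tau the count was 45 in protein-coding genes alone and 354 to 840 with 1 library left out, against 779. In treated tau against control it was 40 in protein-coding genes alone and 495 to 817 with 1 library left out, against 873. Same-numbered libraries did not deviate together (correlations of 0.010, -0.0080 and 0.073), and the replicate block gave 0, 708 and 796 genes for tau against control, treated tau against tau and treated tau against control. It changed the call of no member, but ended that of Actn2 for treated tau over control and added Scn8a for treated tau over tau (adjusted p = 0.0499) and Nefm for treated tau over control (0.0402). The cause of these changes was not tested, and 2 libraries a group limit precision.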
